A study of Mus musculus with 20 samples.

Results

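Apolipoprotein E (*Apoe*) and apolipoprotein C-IV (*Apoc4*) were followed in splenic follicular T cells. They are 2 of the 13798 genes in the expression matrix, chosen by name because earlier results of these data had shown their levels by cluster and condition, so those levels are given as a description without a test. The data came from single-cell RNA sequencing of 28192 CD4+CXCR5+PD1+ cells of 10 C57BL/6 bone marrow chimeras, with 1 library per mouse. Recipients aged 8 to 10 weeks were irradiated and given congenic wild type marrow alone (WT, 5 mice, 2 labelled female and 3 male) or congenic marrow mixed with marrow carrying the autoreactive 564Igi B cell clone (564Igi, 5 mice, 3 labelled female and 2 male). At 6 weeks the WT group received NP-OVA in alum, and the paper's methods also describe a later booster of NP-OVA. No immunization is given for the 564Igi group, and spleens of both groups were taken 10 weeks after irradiation. The 564Igi marrow and the immunization of controls therefore cannot be told apart in any difference between conditions.

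Apolipoproteins are the protein part of lipoprotein particles. ApoE is bound by lipoprotein receptors on cells and is made in quantity by hepatocytes, astrocytes and macrophages, in which its gene is a target of the oxysterol-sensing LXR receptors. ApoC-IV is a small protein of triglyceride-rich particles, best known from liver. Neither is a customary marker of follicular T cells, and macrophages are the usual source of *Apoe* RNA in spleen, so genes of macrophages were read in the same cells. Follicular helper T (TFH) cells support B cells in germinal centers and follicular regulatory T (TFR) cells restrain them.

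Both genes lie on the minus strand of chromosome 7 of GRCm38. In GENCODE vM21, *Apoe* (ENSMUSG00000002985.16) spans 19696109 to 19699188 and *Apoc4* (ENSMUSG00000074336.5) spans 19678083 to 19681479, with 14629 bases between them that hold *Apoc1*. A read-through gene model on the same strand, *Gm44805*, covers 98.4% of the *Apoc4* span, so reads of *Apoc4* and of the read-through could be divided between both or left uncounted. *Gm44805* itself was found in 11 cells. The 5′ library reads transcripts from their start, and the sequences around both starts are shown because the genes were found together in cells. Each runs 5′ to 3′ on the gene's strand from 250 bases before to 50 after a RefSeq start (GRCm38.p6), with capitals for any match to a promoter motif, searched on either strand. The motifs were the TATA box, spelled TATAAA, the box known by its letters CCAAT, and the GC box, spelled GGGCGG.
Apoe, chr7:19699139-19699438, minus strand: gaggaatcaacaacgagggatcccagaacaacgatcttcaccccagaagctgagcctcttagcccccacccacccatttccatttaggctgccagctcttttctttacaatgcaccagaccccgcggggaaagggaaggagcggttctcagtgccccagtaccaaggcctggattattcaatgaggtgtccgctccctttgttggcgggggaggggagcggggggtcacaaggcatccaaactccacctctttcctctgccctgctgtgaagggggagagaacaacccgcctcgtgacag
Apoc4, chr7:19681411-19681710, minus strand: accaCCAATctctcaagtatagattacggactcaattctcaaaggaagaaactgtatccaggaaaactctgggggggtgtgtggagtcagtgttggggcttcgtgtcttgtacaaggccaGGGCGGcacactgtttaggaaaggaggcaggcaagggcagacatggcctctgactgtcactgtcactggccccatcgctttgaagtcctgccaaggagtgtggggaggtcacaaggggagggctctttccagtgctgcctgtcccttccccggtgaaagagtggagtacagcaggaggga
The *Apoe* window held none of the 3 motifs. The *Apoc4* window held the second and the third of them, at -246 and -130 from the start. Among 32851 mouse promoter windows of this length, 13.6% held TATAAA, 37.4% CCAAT and 35.7% GGGCGG on either strand.

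Libraries held 1121 to 4030 cells and between 3424280 and 15241983 raw unique molecular identifier (UMI) counts, with a median of 2728 to 4376 UMIs per cell. Values are counts corrected for depth by the authors, and a cell was called positive with at least 1 corrected count. T cell genes were present throughout, as *Cd3e* was found in 99.4% of cells and *Cd4* in 67.6%. Across libraries, 491 barcodes occurred in more than 1 library (988 cells), and such cells made up 3.56% of *Apoe*+ and 3.50% of *Apoe*- cells. Free RNA in droplets can give counts in cells that do not express a gene. Genes that T cells should lack were found in 0.259% (*Cd79a*, B cells), 0.0568% (*Ms4a1*, B cells) and 0.443% (*Hbb-bs*, red cells) of cells.

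*Apoe* was found in 1350 cells (4.79%) and *Apoc4* in 559 (1.98%). Among *Apoe*+ cells the median was 4 corrected counts and the highest 85, and 60.7% had at least 3 counts. *Apoc4*+ cells had a median of 2 and at most 33 counts, with 44.5% at 3 or more. By comparison 0.8% of *Hbb-bs*+, 8.22% of *Cd79a*+, 12.5% of *Ms4a1*+ and 24.3% of *Lyz2*+ cells reached 3 counts. The 10% of *Apoe*+ cells with most counts held 41.2% of all *Apoe* counts. Positive cells thus spanned a wide range, with 416 of the 1350 *Apoe*+ cells at 1 count and 424 at 10 or more.

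By mouse, *Apoe*+ cells made up 0.738%, 0.892%, 8.25%, 4.53% and 3.52% of cells in WT mice 11, 12, 14, 23 and 36. In 564Igi mice 13, 17, 21, 24 and 34 they made up 7.34%, 3.92%, 8.11%, 7.05% and 5.98%. WT mice 11 and 12 were the low samples, WT mouse 14 was the highest of all, and the groups overlapped. The mean was 3.59% ± 3.08 in WT and 6.48% ± 1.62 in 564Igi chimeras (SD, n = 5 each). As a level, the mean log2(corrected count + 1) over cells, it was 0.09 ± 0.08 in WT and 0.17 ± 0.06 in 564Igi mice, a difference of 0.08 on the log2 scale.

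*Apoc4* followed the same order of mice at the low end. It was found in 0.246%, 0.446%, 3.598%, 1.59% and 1.36% of cells in WT mice 11, 12, 14, 23 and 36. In 564Igi mice 13, 17, 21, 24 and 34 the share was 3.37%, 1.78%, 2.98%, 4.01% and 2.29%. WT mice 11 and 12 were again lowest and the groups overlapped. Over all 9959 genes tested, 0.261% had a level in every 564Igi mouse above that in every WT mouse, and neither gene was among them. The mean was 1.45% ± 1.33 in WT and 2.89% ± 0.881 in 564Igi chimeras (SD, n = 5 each). With at least 3 counts required, the *Apoe*+ share was 2.03% ± 1.78 in WT and 4.05% ± 1.36 in 564Igi chimeras, and the *Apoc4*+ share 0.51% ± 0.375 and 1.38% ± 0.477. The authors corrected the counts of each condition separately, so levels set across conditions also carry any difference between those corrections.

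The low WT mice, 11 and 12, are both mice that the labels give as female. Among mice labelled female, *Apoe*+ cells made up 0.738% to 0.892% of WT cells (n = 2) and 5.98% to 8.11% of 564Igi cells (n = 3), without overlap. Among mice labelled male the share was 3.52% to 8.25% in WT (n = 3) and 3.92% to 7.05% in 564Igi chimeras (n = 2), with the 564Igi values inside the WT range. *Apoc4* showed the same split, at 0.246% to 0.446% against 2.29% to 3.37% in females and 1.36% to 3.598% against 1.78% to 4.01% in males. Over all cells the shares were thus apart among mice labelled female and not among those labelled male. Groups of 2 and 3 mice can separate by chance alone. The share of all genes that separate so within a labelled sex was not counted. In the *Sostdc1* cluster the shares were apart among males too, at 9.27% to 13.88% in WT and 15.85% to 15.98% in 564Igi chimeras for *Apoe*. Whether the difference itself depends on sex was not tested. Mice 11 and 12 had 7.35% and 7.32% of their cells in the *Sostdc1* cluster, within the range of the other mice. Mouse 12 had the highest share of TFR cells, 56.4%. Both had the lowest mean log2 levels of *Ascl2*, a TFH transcription factor, at 0.11 and 0.10, and the part of these values in the low *Apoe* share was not tested.

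By cluster, as the authors named them, *Apoe* was highest in the *Sostdc1* cluster, a group of TFH cells with high *Sostdc1*, *Il4* and *Il21*. *Apoe*+ cells made up 8.26% ± 5.64 of this cluster in WT and 17.96% ± 4.12 in 564Igi chimeras (SD, n = 5 each). In activated TFH cells the shares were 4.74% ± 4.48 and 8.04% ± 2.34, and in TFR cells 1.63% ± 1.36 and 2.35% ± 0.563. The share was higher in the *Sostdc1* than in the activated cluster in 10 of 10 mice, by 6.72 percentage points ± 4.82 (SD), and higher in activated than in TFR cells in 10 of 10 mice, by 4.40 ± 2.88. Central memory, effector and interferon-stimulated (ISG) TFH cells held 4 of 725, 9 of 682 and 5 of 379 *Apoe*+ cells. TFR cells differed from each of these 3 by less than the SD over mice (1.002, 0.598 and 0.46 percentage points with SDs of 1.10, 2.19 and 1.31, over the mice with at least 20 cells). Median depth was 3741 UMIs in *Sostdc1*, 3547 in activated and 3461 in TFR cells, the same order as the *Apoe* share, and 4027 in central memory, 3471 in effector and 3893 in ISG cells. The part of depth in the order of clusters was not tested.

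Within the *Sostdc1* cluster the single mice read as follows for *Apoe*. WT mice 11, 12, 14, 23 and 36 had 3.35%, 1.52%, 13.3%, 13.88% and 9.27% positive cells. 564Igi mice 13, 17, 21, 24 and 34 had 19.7%, 15.98%, 24.3%, 15.9% and 13.95%. The shares did not overlap, but the nearest mice, WT 23 and 564Igi 34, lay at 13.88% and 13.95%, and the mean log2 levels did overlap. For *Apoc4* the shares in this cluster were 0.478%, 1.52%, 6.29%, 4.73% and 4.63% in the WT mice and 8.83%, 7.22%, 8.71%, 12.2% and 6.69% in the 564Igi mice. These shares did not overlap either and the levels did. Over all 9885 genes tested in this cluster, 0.273% had a share of positive cells in every 564Igi mouse above that in every WT mouse, and 0.334% had such a separation of levels.

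**Figure D1:**
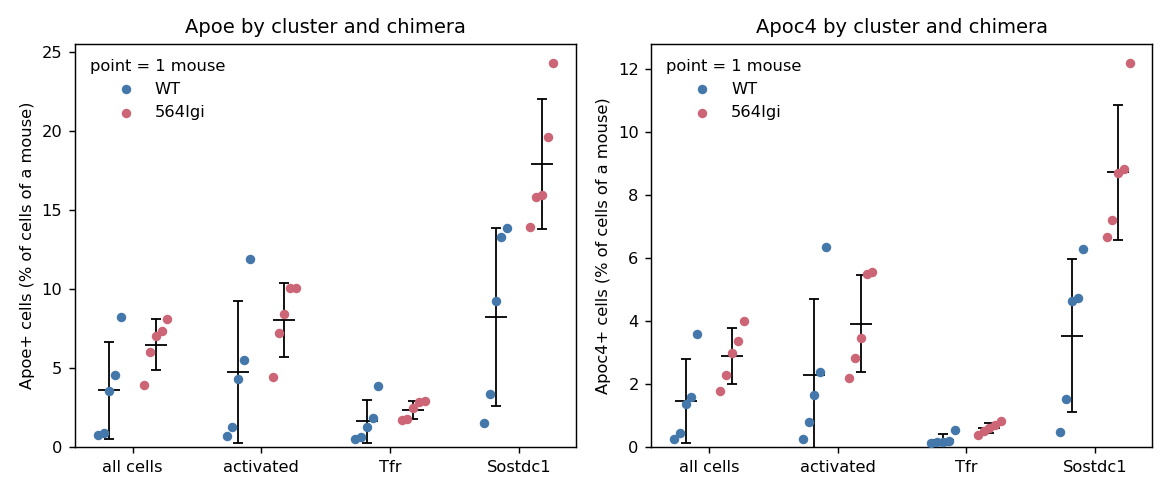
Share of cells with at least 1 corrected *Apoe* (left) or *Apoc4* (right) count, in percent of the cells of a mouse, in all cells and in the 3 largest clusters. Points are mice (5 WT, blue; 5 564Igi, red), black bars mean ± SD. The *Sostdc1* cluster is highest for both genes. WT mice 11 and 12 have the lowest *Apoe* shares of all mice in each set, up to 3.35% in the *Sostdc1* cluster.

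*Apoc4* had the same order of clusters, at 3.53% ± 2.43 and 8.73% ± 2.15 of *Sostdc1* cells in WT and 564Igi chimeras, 2.29% ± 2.41 and 3.92% ± 1.55 of activated cells and 0.234% ± 0.170 and 0.601% ± 0.174 of TFR cells (SD, n = 5 each). It was higher in the *Sostdc1* than in the activated cluster in 9 of 10 mice and higher in activated than in TFR cells in 10 of 10. The central memory, effector and ISG clusters held 2, 1 and 3 *Apoc4*+ cells. Counts per positive cell moved the same way, with a median of 6 *Apoe* counts in positive *Sostdc1* cells, 5 in activated and 1 in TFR cells. The *Sostdc1* cluster held 9.94% of all cells but 29.0% of *Apoe*+ and 30.2% of *Apoc4*+ cells.

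Across all genes, 564Igi and WT chimeras were compared with limma on the mean level of each mouse, calling genes at a Benjamini-Hochberg adjusted p under 0.01 and an absolute log2 difference over 0.2. Since *Apoe* and *Apoc4* were chosen on this contrast, no test of them is read from it. The genes called numbered 1 of 9959 (0.01%) in all cells, 1 of 9859 (0.0101%) in activated, 2 of 9994 (0.02%) in TFR and 2 of 9885 (0.0202%) in *Sostdc1* cells, namely *Gm42031* in each, *Ly6a* in TFR and *Tpt1* in *Sostdc1* cells, named here after their values were seen. *Apoc4* did not pass the detection filter in TFR cells. Of the genes that handle lipoproteins and cholesterol, 0 of 9 tested lipoprotein receptors and partners, 0 of 12 genes of cholesterol efflux and LXR and 0 of 23 genes of sterol synthesis were called in all cells, with median log2 differences of -0.00475, -0.00058 and -0.00361 beside -0.00184 over all 9959 genes. Genes found in few cells can hardly reach the limit of 0.2, so no direction is read from the absence of calls in these lists. Counting unadjusted limma p-values below 0.05 gave 318 of 9959 genes in all cells, fewer than this threshold gives on average when no gene differs.

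*Apoe* and *Apoc4* were found in the same cells. Both were found in 420 cells, which is 31.1% of *Apoe*+ and 75.1% of *Apoc4*+ cells. If they were independent within each mouse and cluster, 56.4 cells with both would be found, so the observed number was 7.45 times higher. Within mouse and cluster, *Apoc4* was found in 30.1% ± 8.62 of *Apoe*+ and 0.795% ± 0.548 of *Apoe*- cells (SD, n = 10 mice). By mouse, the share in *Apoe*+ cells was 9.52%, 37.5%, 33.3%, 27.0% and 28.2% in WT mice 11, 12, 14, 23 and 36 and 36.04%, 31.9%, 31.2%, 40.5% and 25.7% in 564Igi mice 13, 17, 21, 24 and 34. The share in *Apoe*- cells was at most 1.73%, and the difference was positive in 10 of 10 mice at 29.3 percentage points ± 8.36 (SD; two-sided exact sign-flip permutation p = 0.00195, the smallest 10 mice allow, Benjamini-Hochberg adjusted p = 0.00751 over 25 such tests). The low value of mouse 11 rests on 21 *Apoe*+ cells. In the reverse direction, *Apoe* was found in 70.2% ± 15.4 of *Apoc4*+ and 5.39% ± 3.06 of *Apoc4*- cells of the same clusters.

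Co-detection was seen in each of the 3 large clusters. *Apoc4* was found in 36.8% of *Apoe*+ cells of the *Sostdc1* cluster (95% exact binomial interval 32.0% to 41.8%), 35.3% of activated (31.8% to 38.9%) and 9.13% of TFR cells (5.67% to 13.7%). *Apoe*- cells of these clusters had 1.04%, 0.739% and 0.227%. The share was higher in cells with many *Apoe* counts, though not at each step. It was 0.518% in 26842 cells with no *Apoe* count, 7.21% in 416 cells with 1 count, 26.1% in 115 cells with 2 counts, 21.9% in 219 cells with 3 to 5 counts, 33.3% in 213 cells with 6 to 10 counts, 50.5% in 202 cells with 11 to 20 counts and 75.1% in 185 cells with more (68.3% to 81.2%). Intervals cover counting error only.

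**Figure D2:**
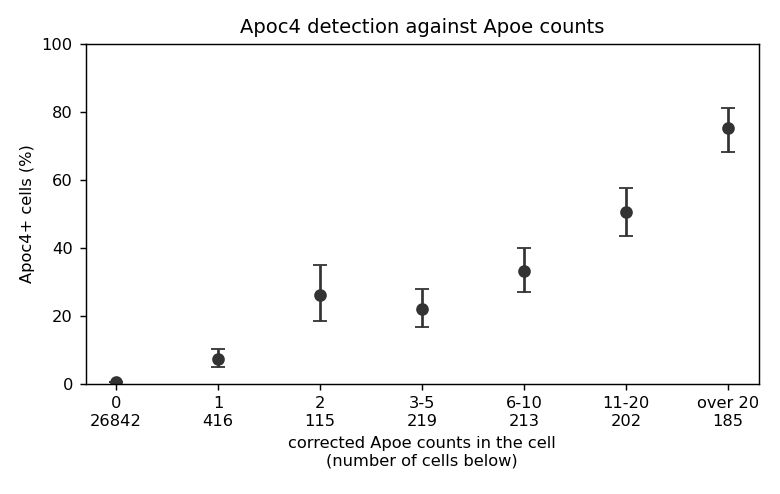
Share of cells with at least 1 *Apoc4* count (percent) by the number of corrected *Apoe* counts in the cell, with the number of cells under each bin and 95% exact binomial intervals. The share is 0.518% with no *Apoe* count, 26.1% with 2, 21.9% with 3 to 5 and 75.1% with more than 20.

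*Apoc1*, which lies between the 2 genes and encodes another small apolipoprotein, was rare but found beside them. It was found in 43 of 1350 *Apoe*+ and 10 of 26842 *Apoe*- cells, and in 7.38% of cells with both *Apoe* and *Apoc4*. The difference between *Apoe*+ and *Apoe*- cells was positive in 8 of 10 mice (2.57 percentage points ± 1.52, two-sided exact sign-flip permutation p = 0.00781, adjusted p = 0.0130). *Tomm40*, the nearest gene upstream of *Apoe*, was found in 23.2% of *Apoe*+ and 21.4% of *Apoe*- cells of the same clusters and differed by 0.02 (standard error 0.02) in mean log2 level (limma adjusted p = 0.328). *Gemin7* and *Relb* further along the locus differed by 0.11 (standard error 0.01, limma adjusted p = 5.44e-05) and 0.10 (standard error 0.02, limma adjusted p = 0.00536), under the limit of 0.2. Of 7 tested neighbours of the locus, *Apoe* itself left out, 1 was called, *Apoc4*, and 6 had an unadjusted limma p below 0.05. Over all 9958 genes tested in this comparison, 174 were called and 2701 had such a p.

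Carried-over myeloid RNA was examined with *Lyz2* (lysozyme, a gene of macrophages and neutrophils) and *Cst3* (cystatin C, a secreted protease inhibitor that is high in myeloid cells and low in many others). *Lyz2* was found in 11 of 1350 *Apoe*+ cells (0.815%) and in 0.220% of *Apoe*- cells. Hence 99.2% of *Apoe*+ cells had no *Lyz2* count. None of the 420 cells with both apolipoproteins had one, which allows a share of up to 0.714%, and none of the 559 *Apoc4*+ cells had one, which allows up to 0.537%. Both limits lie above the 0.220% of *Apoe*- cells, so no direction was read from them. Within mouse and cluster the *Lyz2* share was higher in *Apoe*+ cells in 8 of 10 mice, by 1.23 percentage points ± 1.73 (SD; two-sided exact sign-flip permutation p = 0.0195, adjusted p = 0.0305). The largest differences, 4.55 and 4.06 points, came from WT mice 11 and 12, with only 21 and 24 *Apoe*+ cells. The mean difference was 2.18 points in WT and 0.271 in 564Igi mice.

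There were 14 cells (0.0497%) in 5 mice with at least 10 *Lyz2* or *Tyrobp* counts, a cutoff chosen after the values were seen. They held 92.7% of all *Lyz2* counts, 10 of the 14 had no *Cd3e* count, and 1 had a paired T cell receptor. *Apoe* was found in 6 of them, with 1 to 19 counts, and *Apoc4* in none. They held 0.428% of all *Apoe* counts. Without them the *Lyz2* difference was 0.542 percentage points ± 1.49 (two-sided exact sign-flip permutation p = 0.32), a smaller value that follows in part from choosing the cells by *Lyz2*. Pooled, 6 of the other 1344 *Apoe*+ cells (0.446%) and 0.209% of the other *Apoe*- cells had *Lyz2*.

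*Cst3* was found in 52.0% ± 6.43 of *Apoe*+ and 43.8% ± 3.91 of *Apoe*- cells (SD, n = 10 mice). By mouse, *Apoe*+ cells had 57.1%, 50%, 50%, 57.9% and 53.5% in WT mice 11, 12, 14, 23 and 36 and 54.5%, 53.8%, 56.1%, 35.4% and 51.4% in 564Igi mice 13, 17, 21, 24 and 34. The share was higher than in *Apoe*- cells in 9 of 10 mice, all but 564Igi mouse 24, by 8.15 percentage points ± 4.26 (two-sided exact sign-flip permutation p = 0.00391, adjusted p = 0.00751). *Apoc4*+ cells differed from *Apoc4*- cells by 11.2 ± 5.30 points in the same direction in 10 of 10 mice. The gene was thus found across T cells with and without *Apoe*, and its level differed by 0.15 (standard error 0.02) on the log2 scale between *Apoe*+ and *Apoe*- cells (limma adjusted p = 0.000161), under the limit of 0.2 used for calls. Without the 14 cells with many myeloid counts the difference in share was 7.83 points ± 4.15.

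Of 24 defining macrophage markers listed, 14 were measured in the matrix and the other 10 were not analysed here. Cells with at least 1 count of any of the 14 made up 21.8% of *Apoe*+ and 15.3% of *Apoe*- cells (difference 6.46 percentage points ± 6.15, higher in 9 of 10 mice, two-sided exact sign-flip permutation p = 0.00391, adjusted p = 0.00751). They made up 16.1% of *Apoc4*+ and 14.8% of *Apoc4*- cells (difference 1.33 percentage points ± 8.71, higher in 7 of 10 mice, two-sided exact sign-flip permutation p = 0.635, adjusted p = 0.661). Most such cells had *Hmox1* (14% of *Apoe*+ and 8.59% of *Apoe*- cells), *Axl* (5.19% and 5.41%) and *Cd68* (2.37% and 3.45%), the 3 markers found in over 1% of *Apoe*- cells. Of these, *Hmox1* differed by 0.05 (standard error 0.01) on the log2 scale (limma adjusted p = 0.00335), and none of the 3 was called. Genes found in few cells can hardly reach the limit of 0.2. Shares of single markers in this paragraph are pooled over mice and clusters. The other 11 markers were found in 2.998% ± 1.55 of *Apoe*+ and 0.885% ± 0.346 of *Apoe*- cells (difference 2.11 percentage points ± 1.49, higher in 9 of 10 mice, two-sided exact sign-flip permutation p = 0.00391, adjusted p = 0.00751). Among them *Tyrobp* was found in 0.741% of *Apoe*+ and 0.0894% of *Apoe*- cells, *Mpeg1* in 0.741% and 0.123%, *Fcer1g* in 0.593% and 0.123% and *Csf1r* in 0.444% and 0.0335%. The summed level of all 14 was 0.403 in *Apoe*+ and 0.174 in *Apoe*- cells, higher in 10 of 10 mice. Pooled over mice and clusters, and so not matched as the 0.885% was, 7 (1.67%) of the 420 cells with both apolipoproteins had any of the 11. The pooled share of *Apoe*- cells was 1.08%. In the 420 cells *C1qa*, *C1qb*, *Lyz2*, *Fcer1g*, *Tyrobp*, *Spic* and *Fcgr3* were at 0, which allows up to 0.714% each. Of the 185 cells with more than 20 *Apoe* counts, 185 had *Cd3e*, 1 had *Lyz2* and 2 had any of the 11 markers. The summed level of the 14 markers per mouse was 0.171 to 0.233 in WT and 0.146 to 0.264 in 564Igi chimeras, and the ranges of the conditions overlapped. The part of these markers in the *Apoe* values was not tested beyond the counts given here.

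**Figure D3:**
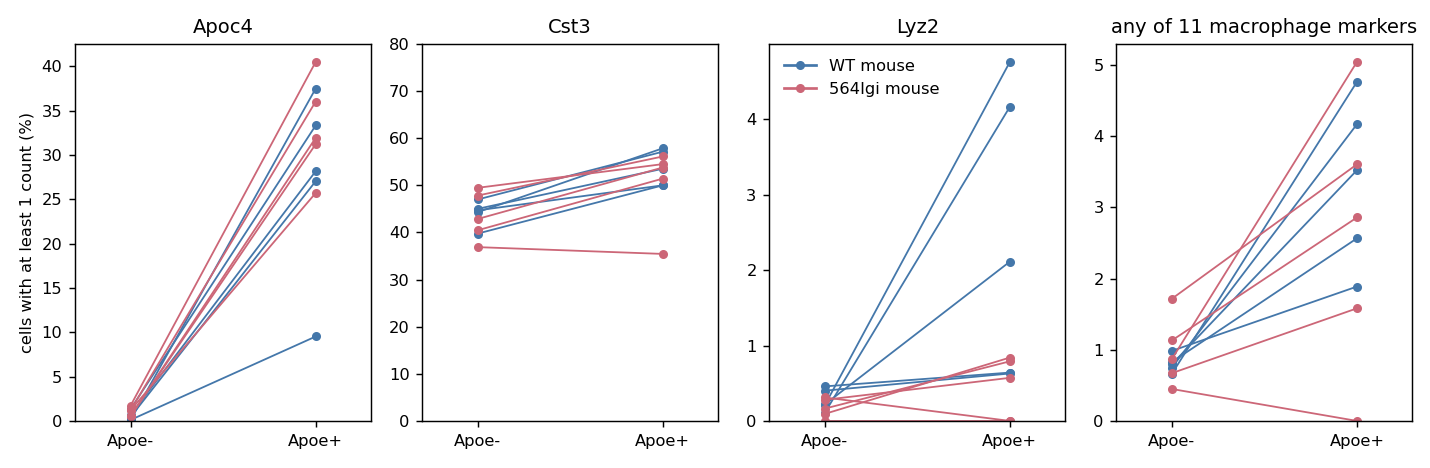
Share of cells (percent) with at least 1 count of *Apoc4*, *Cst3*, *Lyz2* or any of the 11 macrophage markers that are rare in *Apoe*- cells, in *Apoe*- and *Apoe*+ cells of the same clusters. Each line is a mouse, and the vertical scales differ. *Apoc4* goes from at most 1.73% to 9.52% or more, *Lyz2* stays under 5%.

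Shares of single genes in this paragraph are pooled over mice and clusters, so they also carry differences in cluster composition. TFR cells made up 16.2% of *Apoe*+ cells and 41.3% of all cells. B cell genes were mixed in these pooled shares. *Cd22* was found in 7.41% of *Apoe*+ and 4.28% of *Apoe*- cells, *Fcmr* in 4.22% and 2.88% and *Cd79b* in 2.44% and 3.62%. Within mouse and cluster, the summed level of the 7 measured B cell genes was 0.238 in *Apoe*+ and 0.106 in *Apoe*- cells, higher in 10 of 10 mice. Antigen presentation genes, shared by B cells, dendritic cells and macrophages, had a summed level of 0.508 against 0.359 within mouse and cluster, also higher in 10 of 10 mice. Pooled, *H2-Aa* was found in 2.37% and 1.36%, *H2-Ab1* in 2.67% and 1.51% and *Cd74* in 24.1% and 29.8% of *Apoe*+ and *Apoe*- cells. None of the 3 B cell and 4 antigen presentation genes tested was called, but a gene found in few cells can hardly reach the limit of 0.2. No direction is read from the absence of calls. The part of B cells and antigen presenting cells in the *Apoe* values was not tested. Dendritic cell genes were found in no more than 0.519% of *Apoe*+ cells, and neither *S100a8* nor *S100a9* of neutrophils was found in any. *Ms4a1* and *Cd79a* of B cells were found in 0.148% and 0.370%. *Pax5*, a transcription factor of B cells, stood apart with 4.96% of *Apoe*+, 8.33% of double positive and 0.741% of *Apoe*- cells. It was singled out after its values were seen, did not pass the detection filter and was not tested. The 3 measured genes of follicular dendritic and stromal cells, *Mfge8*, *Cxcl13* and *Madcam1*, were found in 4.74%, 0% and 0.444% of *Apoe*+ cells and 4.97%, 0.041% and 0.183% of *Apoe*- cells. The platelet gene *Itga2b* was found in no *Apoe*+ cell, plasma cell genes in at most 0.222% and globin genes in at most 0.593%.

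Of 9958 genes tested by limma on the difference between *Apoe*+ and *Apoe*- cells of each mouse, stratified by cluster, 92 (0.924%) were higher and 82 (0.823%) lower in *Apoe*+ cells. *Apoc4*+ cells differed from *Apoc4*- cells in 111 (1.11%) higher and 86 (0.864%) lower genes. The lists share cells and are not independent. The 80 genes higher in both are 87.0% of the *Apoe* list and 72.1% of the *Apoc4* list, and the 67 lower in both are 81.7% and 77.9%.

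Among the genes higher in *Apoe*+ cells in every mouse, the largest difference was that of the gene model *Gm30211*, found in 54.9% of *Apoe*+ and 13.9% of *Apoe*- cells (0.94 on the log2 scale, standard error 0.10, limma adjusted p = 2.14e-06). *Pdcd1*, which encodes the PD-1 receptor used in the sort, was higher by 0.81 (standard error 0.06, adjusted p = 2.46e-08). The hypoxia-response factor *Hif1a* was higher by 0.77 and the phosphatase inhibitor gene *Ppp1r14b* by 0.72. *Rgs10* and *Rgs16*, regulators of G protein signalling, were higher by 0.69 and 0.55. *Apoc4* itself ranked sixth at 0.63 (standard error 0.05, adjusted p = 6.82e-08), followed by *Dap* at 0.61, the lysosomal membrane gene *Lamp1* at 0.59 and the glycolytic aldolase gene *Aldoa* at 0.54. Each of these was higher in 10 of 10 mice. With *Apoc4* as the dividing gene, *Apoe* led at 2.44 (standard error 0.14, adjusted p = 1.43e-07), and *Cxxc5* (0.67), the cathepsin gene *Ctsl* (0.64) and the cytokine gene *Mif* (0.64) joined the first 10.

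Of 12 genes of the *Sostdc1* cluster and of helper function, 5 were called higher in *Apoe*+ cells, 0 lower and 7 did not pass. The 5 were *Pdcd1* as above, *Ascl2* (0.38), a transcription factor that promotes the TFH program, *Icos* (0.23), a costimulatory receptor, *Cxcr5* (0.23), the follicle homing receptor, and *Tox2* (0.20). The median of the 12 was 0.17 beside 0.00644 over all genes. The list partly follows genes the study described for this cluster in these cells and is no independent evidence of direction. *Ascl2* was found in 48.5% of *Apoe*+ and 22.2% of *Apoe*- cells of the same clusters. *Sostdc1* was at 0.18 (standard error 0.02, adjusted p = 1.84e-06) and *Bcl6*, the lineage factor of TFH cells, at 0.12 (standard error 0.02, adjusted p = 0.000264), under the limit of 0.2. For the cytokine genes *Il4* and *Il21* the values were 0.06 each (standard error 0.02, limma adjusted p = 0.0352 and 0.0221). In *Apoc4*+ cells 4 of the 12 passed, *Pdcd1*, *Cxcr5*, *Tox2* and *Ascl2*.

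The genes lower in *Apoe*+ cells in every mouse were led by *S100a10*, an annexin partner, at -0.74 (standard error 0.04, adjusted p = 1.72e-10). *Thy1*, a surface glycoprotein of T cells, was at -0.61 (standard error 0.05, adjusted p = 5.37e-08) and was found in 22.3% of *Apoe*+ and 53.2% of *Apoe*- cells of the same clusters. *Gimap4* and *Gimap7*, GTPases of lymphocytes, were at -0.55 and -0.39. *S100a6* was at -0.47, *Ms4a4b* at -0.40, the ribosomal protein gene *Rps19* at -0.39, the intermediate filament gene *Vim* at -0.39, the interferon-inducible *Ifi27l2a* at -0.37 and *Izumo1r* at -0.34. Of 6 general T cell genes tested, 1 was called, *Thy1*. For *Cd3e* the difference was 0.10 (standard error 0.04, adjusted p = 0.084).

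**Figure D4:**
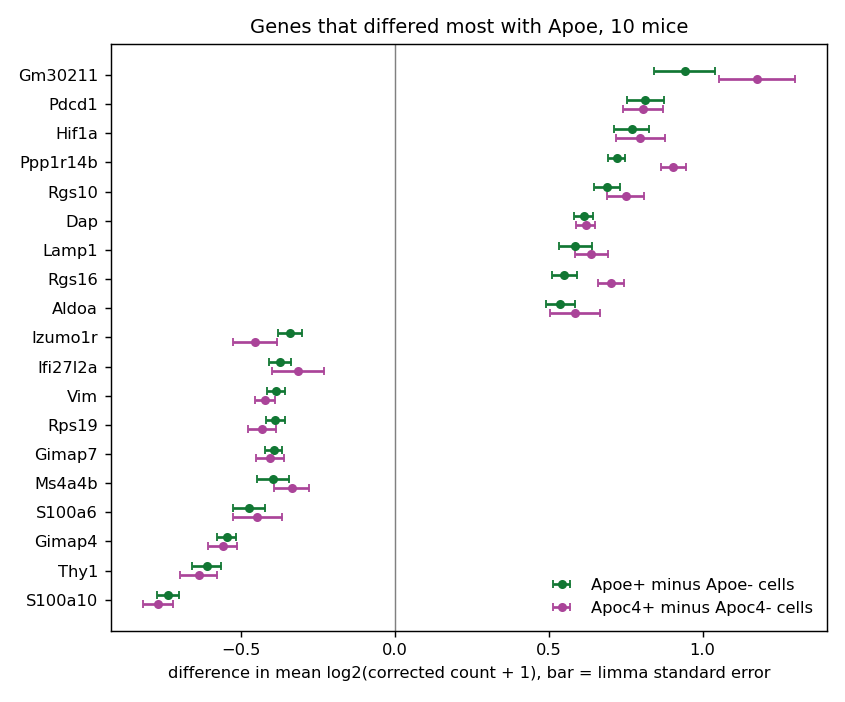
Difference in mean log2(corrected count + 1) between *Apoe*+ and *Apoe*- cells (green) and between *Apoc4*+ and *Apoc4*- cells (purple), for the genes with the largest *Apoe* differences in either direction, *Apoc4* left out. Points are means over 10 mice within clusters, bars limma standard errors. Every gene shown lies on the same side of 0 in both comparisons.

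With 0.924% of all genes called higher and 0.823% lower in *Apoe*+ cells, a list of these sizes can hold none by its size alone. A gene found in few cells can also hardly reach the limit of 0.2, such as *Abca1*, found in 0.667% of *Apoe*+ cells. No direction is therefore read from the absence of calls below. None of the 9 tested lipoprotein receptors and partners passed, with a median difference of -0.00155. For *Lrp10* it was -0.03 (standard error 0.03). None of 12 genes of cholesterol efflux, storage and LXR passed either (median 0.00298), with 0.000851 for *Abca1* and 0.04 for *Abcg1*, the LXR-driven exporters. None of 23 sterol synthesis genes passed (median 0.000412). At an unadjusted limma p below 0.05, 3 of the 9, 4 of the 12 and 4 of the 23 passed, beside 2701 of all 9958 genes. Of the other apolipoproteins, *Apol9b* differed by 0.13 (standard error 0.02, limma adjusted p = 6.71e-05), under the limit of 0.2, and was found in 15.1% of *Apoe*+ and 4.03% of *Apoe*- cells. Its near-identical neighbour *Apol9a* makes this value uncertain.

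A paired receptor was recorded for 78.3% of *Apoe*+ and 78.0% of *Apoe*- cells of the same mouse and cluster (two-sided exact sign-flip permutation p = 0.824, n = 10 mice). They had slightly more genes per cell, 1814 against 1704, higher in 10 of 10 mice (p = 0.00195, exact sign-flip permutation, adjusted p = 0.00751), 4116 against 3964 raw UMIs (p = 0.0352, exact sign-flip permutation, adjusted p = 0.0488) and 4.03% against 3.56% mitochondrial counts (p = 0.00195, exact sign-flip permutation, adjusted p = 0.00751). Matching cells on cluster and UMI quartile left the differences above nearly as large, for example 0.82 for *Pdcd1* and -0.62 for *Thy1*.

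T cells of a clone descend from 1 cell and share their receptor, which the choice of genes did not use. Among 12551 cells with a sister of the same receptor, mouse and cluster, sisters of *Apoe*+ cells were *Apoe*+ in 17.2% ± 9.14 and sisters of *Apoe*- cells in 8.02% ± 4.46 (SD, n = 10 mice). By mouse, the share for *Apoe*+ cells was 1.03%, 10.7%, 31.7%, 16.6% and 9.60% in WT mice 11, 12, 14, 23 and 36 and 19.8%, 12.7%, 27.9%, 23.2% and 18.5% in 564Igi mice 13, 17, 21, 24 and 34. The share for *Apoe*- cells was 1.22%, 0.782%, 9.61%, 7.45% and 7.48% in the WT mice and 13.5%, 5.99%, 12.5%, 12.7% and 8.94% in the 564Igi mice. It was higher for *Apoe*+ cells in 9 of 10 mice, all but WT mouse 11, which had 13 *Apoe*+ cells with sisters. The mean difference was 9.17 percentage points ± 6.33 (two-sided exact sign-flip permutation p = 0.00391, adjusted p = 0.00751). Pooled by cluster, the shares were 30.1% against 16.9% in *Sostdc1*, 17.8% against 7.88% in activated and 6.19% against 1.74% in TFR cells.

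*Apoc4* showed the same in 9 of 10 mice. Sisters of *Apoc4*+ cells were *Apoc4*+ in 13.4% ± 9.13 and sisters of *Apoc4*- cells in 4.17% ± 2.59 (difference 9.21 percentage points ± 8.61, two-sided exact sign-flip permutation p = 0.00391, adjusted p = 0.00751). WT mice 11 and 12 had only 3 and 5 such *Apoc4*+ cells. In TFR cells the 21 *Apoc4*+ cells with sisters had no *Apoc4*+ sister, and sisters of *Apoc4*- TFR cells had 0.662%. The difference between sisters of positive and negative cells was 8.63 points in WT and 9.72 in 564Igi mice for *Apoe* and 7.74 and 10.7 for *Apoc4*, with two-sided exact permutation p = 0.817 and 0.571 between conditions (n = 5 against 5).

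**Figure D5:**
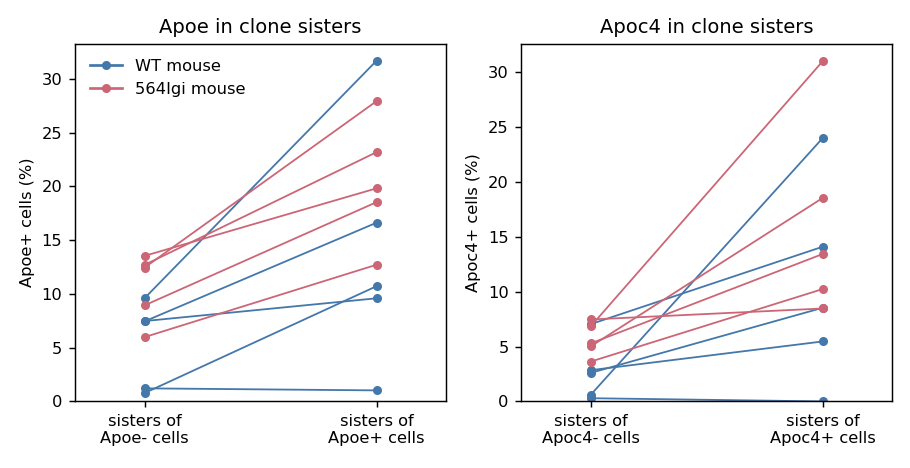
Share of *Apoe*+ (left) and *Apoc4*+ (right) cells, in percent, among clone sisters of negative and of positive cells, within mouse and cluster. Each line is a mouse (blue WT, red 564Igi). The line rises in 9 of 10 mice for each gene.

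The 291 clones with at least 10 cells held 6678 cells, of which 397 were *Apoe*+. Of these clones, 161 (55.3%) had no *Apoe*+ cell and 14 had more than 25%. With so few positive cells, many clones of about 10 cells hold none even if clones do not differ. The number expected in that case was not computed. These 14 (3 of 158 WT and 11 of 133 564Igi clones, in 6 mice) held 25.7% of the *Apoe*+ cells of large clones but 4.51% of their cells. That excess follows from choosing the 14 by their *Apoe*+ share. *Apoc4* was found in 13 of the 14. The clone with the highest share, in 564Igi mouse 21, had 7 *Apoe*+ and 3 *Apoc4*+ of 12 cells, most of them activated. The largest clone, of 179 mostly TFR cells in 564Igi mouse 17, had 1 *Apoe*+ cell. A clone of 148 mostly activated cells in WT mouse 23 had 37, and another of 128 mostly activated cells in WT mouse 12 had 1. These clones also differ in mouse and partly in cluster. By clone size, *Apoe*+ cells made up 3.67% of cells whose receptor was seen once and 6.52% of cells in clones of more than 20, a pooled description in which clusters and mice also differ.

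The genes most like *Apoe* were found by Pearson's r of mean log2 levels over 56 pairs of mouse and cluster with at least 20 cells each, among 9959 genes. *Apoc4* came first (r = 0.95), followed by *Fam20a* (0.92), the receptor gene *Gfra4* (0.91), the amino acid transporter gene *Slc1a4* (0.90) and *Dap* (0.90). For *Apoc4* they were *Apoe* (0.95), *Slc1a4* (0.90), *Fam20a* (0.90), *Stc2* (0.87) and *Ascl2* (0.87). The pairs share mice and clusters, so these values describe the order of levels and are not independent samples. Both genes were also chosen with their levels by cluster and condition known, so their rank for each other is no independent evidence.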

How the data were processed

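RNA and T cell receptor libraries (10x Genomics 5′) were made from sorted follicular T cells, 1 of each per mouse. The submitters' processing notes name Cell Ranger 4.0.0 and Seurat 3.1.4, with GRCm38 as the genome build. The authors filtered cells on gene number, mitochondrial and ribosomal content and cycle scores, removed receptor genes, corrected counts for depth with sctransform within each condition, and named the clusters after integrating both. The expression matrix was deposited as the natural log of corrected count + 1, which gave whole numbers in 100% of nonzero values (tolerance 1e-06). Raw UMI counts and genes per cell, the mitochondrial percent and the heat shock score were deposited by the authors per cell.

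The level of a gene is the mean log2(corrected count + 1) over the cells of a mouse, and a cell was positive from 1 corrected count. Conditions were compared with limma 3.58.1 (R 4.3.3, trended prior) on levels per mouse, for genes with a share of positive cells of 1% or more in 5 or more mice. Positive and negative cells were compared within mouse and cluster, and limma was run on the differences per mouse. Shares were tested by two-sided exact sign-flip permutation over 10 mice (1024 patterns). Limma was tested on simulated data with 200 changed genes. No doublet caller was run. Groups came from the labels, and p-values measure the spread between these mice. The members, the gene lists and the tests were chosen with earlier results of these data known. For each gene, the 10 largest called differences in each direction that had 1 sign in every mouse were named, along with list members and exceptions stated in the text. Alternatives are given in the closing section.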

Additional observations from a re-analysis of the deposited data

Results flagged for a closer look

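In 61 groups of 4 or 5 mice, the mouse farthest from the others was compared with the range of its group, and 10 stood apart. Chance alone gives about 1 in 20 such groups for values that vary smoothly. Where all other mice had a share of 0, as in several groups here, a single positive mouse stands apart by the rule itself. The 10 can therefore not be set against that rate. In WT mouse 14, *Apoe*+ cells made up 4.76% of central memory and 5.88% of ISG cells, *Apoc4*+ cells 0.535% of TFR cells and cells with both genes 0.402% of TFR cells. *Apoc4*+ cells made up 1.299% of effector cells in WT mouse 11, 2.63% of ISG cells in WT mouse 23 and 1.47% of ISG cells in 564Igi mouse 34. Cells with both genes also made up 1.47% of ISG cells in 564Igi mouse 34. Each of these shares rests on 1 to 4 positive cells. In WT mouse 11 *Apoe* was found more often in *Apoc4*+ than in *Apoc4*- cells by 27.7 percentage points, the lowest of the WT mice. In 564Igi mouse 17, cells with any macrophage marker were more frequent among *Apoe*+ than *Apoe*- cells by 15.9 percentage points, the highest of the 564Igi mice.

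The excess of *Apoc1* detection in *Apoc4*+ over *Apoc4*- cells was larger in 564Igi than in WT chimeras by 4.52 percentage points (7.43 against 2.91, n = 5 each, two-sided exact permutation p = 0.0397, where 0.00794 is the smallest possible). It is 1 of 15 such differences between conditions, the p is not adjusted for them, and it rests on 35 *Apoc1*+ cells among 559 *Apoc4*+ cells.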

How the results depend on the processing

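No result changed direction under any alternative run. On log2(mean corrected count + 0.1), the differences between conditions were 0.9996 for *Apoe* and 0.56 for *Apoc4*, and equal weights for the 3 large clusters gave 0.0515 for *Apoc4*. Leaving out 1 mouse gave 0.06 to 0.11 and 0.03 to 0.04. The excess of *Apoc4* in *Apoe*+ cells was 26.6 percentage points in WT and 32.03 in 564Igi mice alone, where an exact sign-flip permutation over 5 mice cannot go below p = 0.0625, and 28.3 to 31.5 without 1 mouse. In tests chosen after seeing the data, the *Lyz2* excess was 0.389 points with *Apoe*+ cells taken from 3 counts (exact p = 0.0938) and 0.542 without the 14 cells high in myeloid counts (exact p = 0.32), and that of any macrophage marker was 4.04 from 3 counts (exact p = 0.135). Leaving out 1 mouse gave 0.858 to 1.40 and 5.11 to 7.45 points.

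Genes called between conditions in all, activated, TFR and *Sostdc1* cells numbered 0 in each with limma without trend (196, 247, 294 and 403 at an unadjusted p below 0.05). Without a filter on low genes there were 0 in the 3 clusters (588, 596 and 653 unadjusted). At adjusted p below 0.05 with no limit on size there were 7, 4, 9 and 4, and on the log2(mean + 0.1) scale 6, 2, 10 and 3. Leaving out 1 mouse gave 1 to 2, 1 to 3, 1 to 3 and 1 to 3. For *Apoe*+ cells 1445 genes passed at adjusted p below 0.05 without a limit and 782 on log2(mean + 0.1), and 161 to 188 without 1 mouse. For *Apoc4*+ cells these were 711 and 452, 162 to 205 without 1 mouse, 13 in WT mice alone and 91 with positive cells from 3 counts. The cause of these changes was not tested.

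The planned exclusion of cells with extra receptor chains became one of cells without a paired receptor, since each listed cell had 1 pair. No paired analysis was possible because WT and 564Igi mice share no replicate numbers. *Apoc4* in WT mice 11 and 12 rests on few cells, which limits every comparison within them.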
